A study of Callithrix jacchus with 54 samples.

Results

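The genes described here are 8 genes of the epithelial-mesenchymal transition (EMT): the transcription factors SNAI1, SNAI2, TWIST1, ZEB1 and ZEB2, the cytoskeletal gene VIM, the matrix gene FN1 and the epithelial surface gene EPCAM. They were taken by symbol from a table of 14812 marmoset genes that have a human counterpart, and 7 of the 8 had a row. ZEB2 is not analysed here. SNAI1 (gene 100386744), SNAI2 (gene 100404347), TWIST1 (gene 100405997), VIM (gene 100408168) and EPCAM (gene 100406516) passed the filter on low values and were tested among 11197 genes. ZEB1 and FN1 did not pass it and are described by their levels.

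In EMT, cells that hold to their neighbours through E-cadherin junctions lose these junctions and become motile. SNAI1, SNAI2, ZEB1 and ZEB2 are zinc finger repressors that bind E-box sequences, among them those of the E-cadherin gene CDH1, and TWIST1 is a basic helix-loop-helix factor that acts in the same programme. VIM encodes vimentin, the intermediate filament protein of mesenchymal cells, FN1 encodes fibronectin, and EPCAM encodes an adhesion molecule found on many epithelia and on pluripotent stem cells. During gastrulation this programme accompanies the formation of mesoderm from the epiblast, the tissue from which primordial germ cells (PGCs) also arise.

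The data were TPM values (transcript abundances scaled to a fixed total per library) from poly(A) RNA sequencing of 54 libraries, 2 for each of 27 conditions, all from the common marmoset embryonic stem cell (cjESC) line CMES40 with BLIMP1-tdTomato and NANOS3-eGFP reporters. The cjESCs were kept on mouse embryonic fibroblasts in the medium DK20FA, where the labels give a line with rtTA, tetO-BLIMP1, SOX17-GR and a DD-tagged TFAP2C, or in the medium PESFA, where they give wild type. From DK20FA, the transgenic line was cultured in BLSE (BMP4, LIF, SCF, EGF and a Rock inhibitor), in BLSE with enforced SOX17 expression (SOX17 + BLSE), or in SOX17 + LSE, without BMP4, for 12, 24, 48 and 96 h. Per the study's methods, SOX17 was enforced by adding dexamethasone, which is not named there for BLSE alone. From PESFA, wild type cells were first treated with IM12 and activin A for 24 h (pre-treated cjESCs) and then cultured in BLSE with the WNT pathway inhibitor IWR1 (BLSE + IWR1), or with IWR1 and the retinoic acid receptor inverse agonist BMS493 (BLSE + IWR1 + BMS), for the same times. The BLSE + IWR1 culture was also taken at day 6, and its PGC-like cells (PGCLCs) were aggregated with mouse gonadal somatic cells as xenogeneic reconstituted ovaries (xrOvary) for 20, 40 and 70 days. Libraries of cjESCs came from cells sorted for TRA-1-60, the 96 h libraries of all conditions but BLSE and all later libraries came from tdTomato-positive cells, and the others came from unsorted cells. The medium and the line changed together, so their effects cannot be told apart.

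The summed TPM of the table ranged from 790300 to 839203, the number of genes above 0 from 10146 to 12688, and the correlation of replicates across genes from 0.977 to 0.994; read depth is not given. The summed TPM of 8 pluripotency markers was 6278 to 8344 in the cjESC libraries. The summed TPM of 7 PGC markers was 1850 to 3780 in the sorted tdTomato-positive libraries, 735 to 898 in the cjESC libraries and 259 to 1953 in the others. The summed TPM of 9 fibroblast markers, which included COL1A1, COL1A2 and COL3A1, stood out at 2991 and 1737 in cjESCs in PESFA, 2519 and 4763 in pre-treated cjESCs and 1935 and 1249 in BLSE at 96 h, against 21.3 to 527 in all other libraries. All 9 of these markers were above 0 in those 6 libraries, and between 0 and 4 of them were at 0 in the others. SOX17 itself was at 164 and 168 TPM in SOX17 + BLSE at 12 h, at 165 and 175 TPM in SOX17 + LSE, and at 64.6 and 62.7 TPM in BLSE. SOX17 was thus higher in the libraries labelled as enforced; how far reads of the human SOX17 transgene were counted was not tested.

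Of the 3 tested genes that were above 0 in all 54 libraries, SNAI1 had the narrowest span and VIM the widest, and SNAI2 and TWIST1 went down to 0. SNAI1 ranged from 16.4 to 76.5 TPM, a 4.66-fold span, with a median of 29.9 TPM. EPCAM ranged from 185 to 1462 TPM, a 7.89-fold span, and VIM from 59.7 to 1924 TPM, a 32.2-fold span. SNAI2 ranged from 0 to 66.5 TPM and TWIST1 from 0 to 43.4 TPM. The low end of SNAI2, TWIST1 and VIM was in the sorted tdTomato-positive cells. In these 16 libraries SNAI2 was at 0 to 4.70 TPM and TWIST1 at 0 to 12.9 TPM, whereas SNAI1 was still at 16.5 to 48.5 TPM. In bulk libraries, fewer cells that express a gene and less RNA per cell cannot be told apart.

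**Figure D1:**
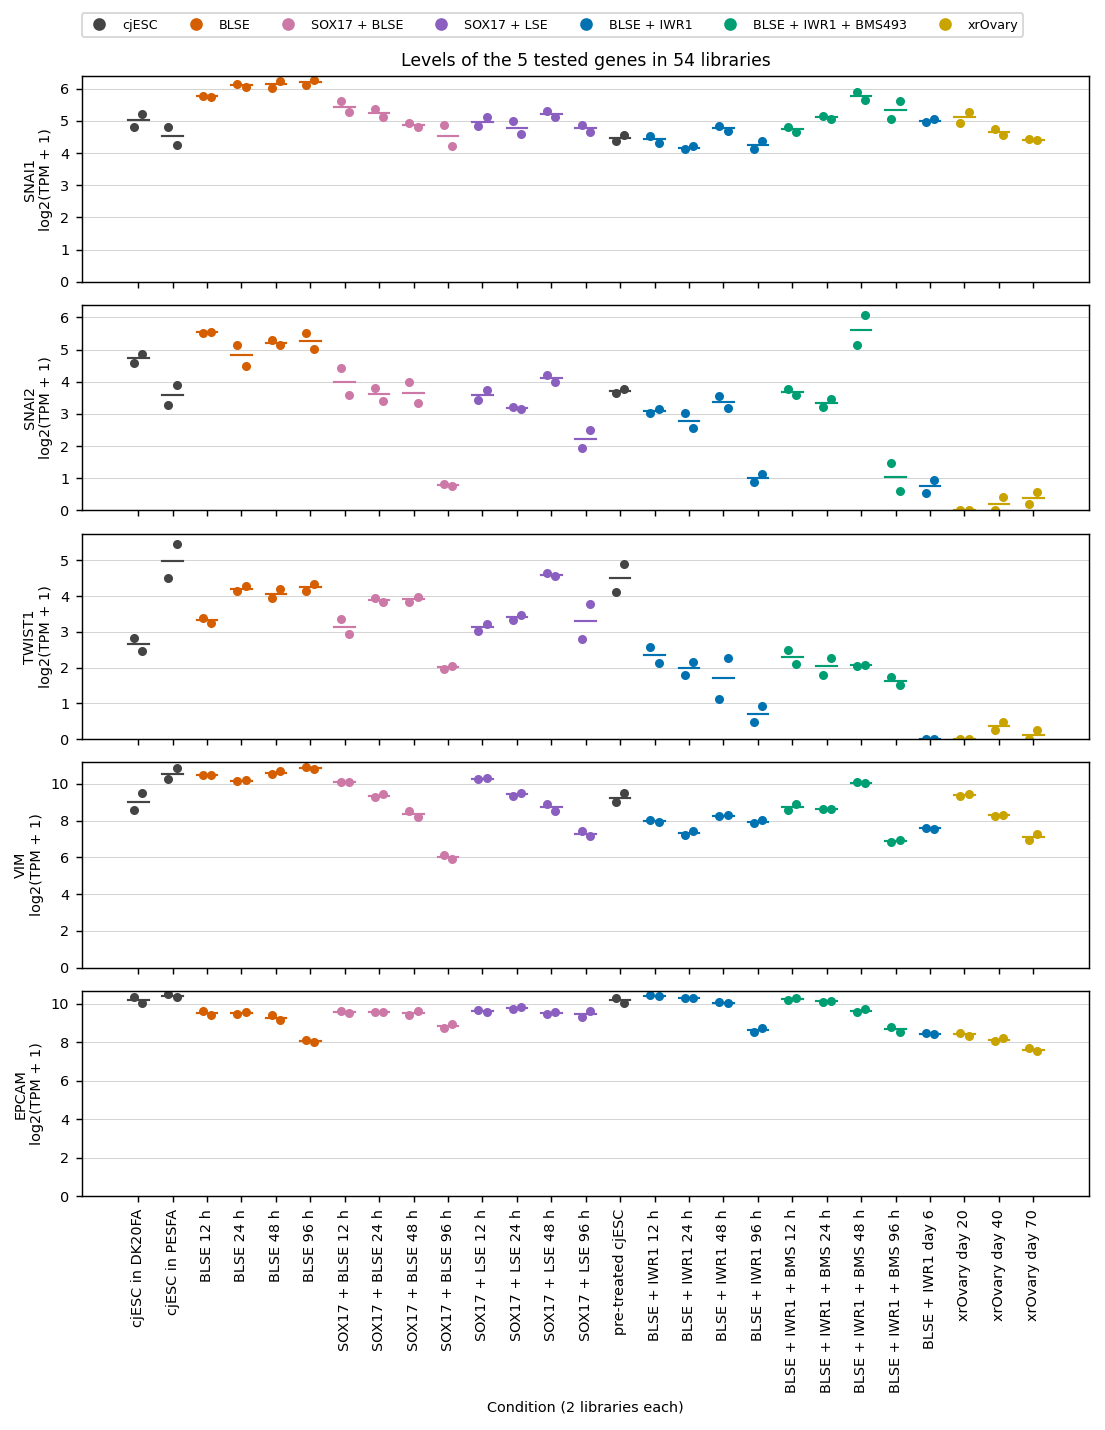
Levels of SNAI1, SNAI2, TWIST1, VIM and EPCAM as log2(TPM + 1) in each of 27 conditions. Points are the 2 libraries of a condition and bars their mean; SNAI2 and TWIST1 lie near 0 from day 6 on, while SNAI1 stays between 16.4 and 76.5 TPM in every condition.

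ZEB1 and FN1 gave no comparison. ZEB1 was highest in cjESCs in PESFA, at 0.80 and 0.82 TPM, and was listed at 0 in 36 of the 54 libraries. FN1 was listed at 0 in all 54 libraries, as were 418 of the 14812 genes, whereas none of 20 looked-up genes that every cell uses was. Whether these zeros stand for absent transcripts was not tested.

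Ordered by mean level, SNAI1 was highest in BLSE at 96 h (72.7 ± 5.41 TPM, SD, n = 2) and lowest in BLSE + IWR1 at 24 h (17.1 TPM). SNAI2 was highest in BLSE + IWR1 + BMS at 48 h (50.4 TPM), followed by BLSE at 12 h (45.5 TPM), and was at 0 in both xrOvary libraries of day 20. TWIST1 was highest in cjESCs in PESFA (32.5 TPM) and at 0 in both libraries of day 6 and of xrOvary day 20. The factors thus peaked in different cultures. VIM was highest in BLSE at 96 h (1844 TPM) and lowest in SOX17 + BLSE at 96 h (64 TPM). EPCAM was highest in cjESCs in PESFA (1383 TPM) and lowest in xrOvary at day 70 (196 TPM). Most neighbours in these orders could not be separated: of 26 neighbouring pairs of conditions, the libraries overlapped in 23 for SNAI1, 19 for SNAI2, 21 for TWIST1, 14 for VIM and 18 for EPCAM.

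Across the 27 condition means of log2(TPM + 1), Pearson's r was 0.75 between SNAI2 and TWIST1, 0.72 between SNAI2 and VIM, 0.64 between SNAI1 and VIM, and 0.60 between SNAI1 and SNAI2. With EPCAM, r was 0.56 for SNAI2, 0.52 for TWIST1, 0.22 for VIM and −0.16 for SNAI1. Of the 4 genes, only SNAI1 had a negative r with EPCAM. Many of these points share a line, a starting culture or a sort, so no p is given. The genes with the most similar profiles over the 27 conditions were FAM171A1 (r = 0.87), PAG1 (0.86) and SEC24D (0.85) for SNAI1. For SNAI2 they were NABP1 (0.97), CYYR1 (0.97) and BTBD3 (0.96), and for TWIST1 they were ARHGDIB (0.92), LMNA (0.92) and RAB1A (0.90). For VIM they were SH3BGRL3 (0.84), YBX1 (0.82) and KLHL5 (0.82). EPCAM ran closest to CDH1 (0.96), the E-cadherin gene.

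The differences that follow are in mean log2(TPM + 1), with the standard error (SE) of a limma model over all 54 libraries, and a gene passed the test at a Benjamini-Hochberg adjusted p under 0.01 over all genes tested. With 2 libraries a condition, the smallest p that an exact permutation test allows is 0.33, so the test rests on a spread shared by all conditions. A lack of overlap between the libraries of 2 conditions reaches no lower than that p, and it was not counted over all genes.

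**Figure D2:**
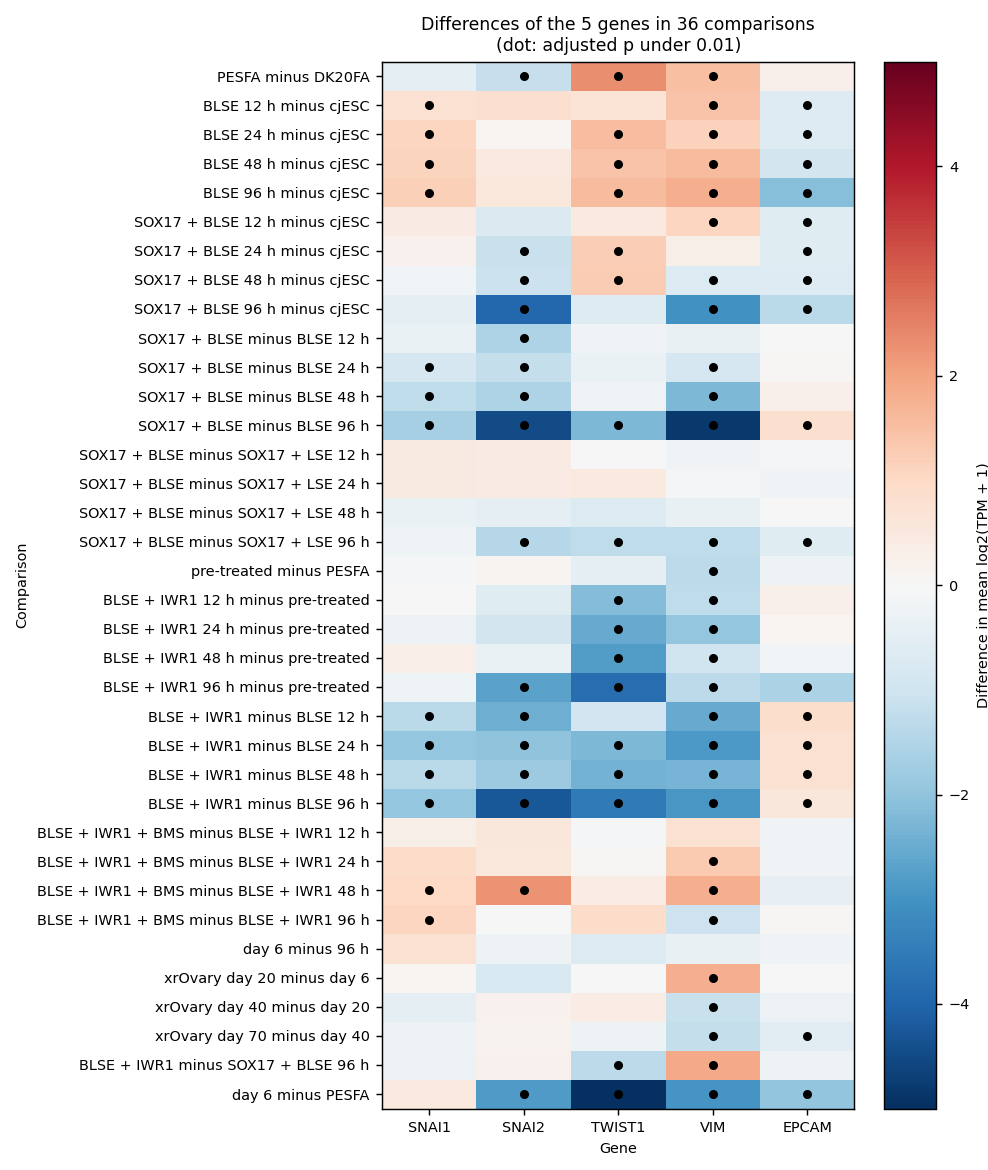
Differences of SNAI1, SNAI2, TWIST1, VIM and EPCAM in mean log2(TPM + 1) in 36 comparisons (red higher, blue lower, dot at an adjusted p under 0.01). SNAI1 differs by at most 1.94 in size, while VIM reaches −4.83 and SNAI2 −4.47 with SOX17 at 96 h; TWIST1 at day 6 is listed at 0.

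The first comparison set cjESCs in PESFA against cjESCs in DK20FA. TWIST1 and VIM were higher and SNAI2 lower in PESFA, so that 3 of the 5 genes passed the test, against 16.8% of all genes. VIM was at 1212 and 1817 TPM in PESFA and 375 and 729 TPM in DK20FA, a difference of 1.502 (SE 0.19, adjusted p = 1.13e-07). TWIST1 was at 21.6 and 43.4 TPM against 6.12 and 4.54 TPM (2.33, SE 0.32, adjusted p = 4.95e-07). Both genes separated the media without overlap. SNAI2 went the other way, with 8.64 and 13.9 TPM in PESFA and 23.1 and 28.3 TPM in DK20FA (−1.15, SE 0.31, adjusted p = 0.00541). SNAI1 was at 26.9 and 18.1 TPM against 27.4 and 35.9 TPM (−0.49, adjusted p = 0.0631). EPCAM was at 1462 and 1304 TPM against 1291 and 1052 TPM and did not pass.

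In the same comparison, 31 of 42 mesenchymal genes rose and 1 fell, with COL3A1 (5.69) and the calcium-binding protein gene S100A4 (5.42) showing the largest rises and CDH11 (−1.49) the fall. The fibroblast marker sums given above were 2991 and 1737 TPM in PESFA against 237 and 282 TPM in DK20FA, and all 10 genes of that list are also in the mesenchymal list. Without them, 24 of 33 mesenchymal genes were higher and 1 lower. The part of mouse feeder cells in the higher VIM and TWIST1 was not tested. The call for CDH11 was lost without PESFA replicate 2 (−1.02, adjusted p = 0.1) or either DK20FA replicate (adjusted p up to 0.0202), and that for COL3A1 was kept, at 4.87 without DK20FA replicate 1 and 6.51 without replicate 2. The call for SNAI2 was lost without DK20FA replicate 1 (−1.29, adjusted p = 0.0168), DK20FA replicate 2 (−1.01, adjusted p = 0.0569) or PESFA replicate 1 (−0.84, adjusted p = 0.105). It was also lost with a pseudocount of 0.1 (adjusted p = 0.0689), with median-ratio scaling (adjusted p = 0.0132) and with quantile normalization (adjusted p = 0.0104).

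BLSE without SOX17 asked what the cytokines do to the transgenic cjESCs. SNAI1 and VIM rose from 12 h on, TWIST1 from 24 h on, and EPCAM fell at all 4 times, while SNAI2 did not pass at any time. At 12 h, 2 of the 5 genes were higher and 1 lower, against 7.41% of all genes called; at 24, 48 and 96 h, 3 were higher and 1 lower, against 11.7%, 19.8% and 29.5%. SNAI1 was at 27.4 and 35.9 TPM in cjESCs, 53.7 and 53.2 TPM at 12 h, 69.4 and 66.3 TPM at 24 h, 64.8 and 74.8 TPM at 48 h, and 68.9 and 76.5 TPM at 96 h. Its difference from cjESCs was 0.75 (SE 0.20, adjusted p = 0.00746) at 12 h and 1.19 (SE 0.20, adjusted p = 5.73e-06) at 96 h. All 8 BLSE libraries lay above both cjESC libraries.

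VIM in cjESCs was at 375 and 729 TPM, and after 12 h in BLSE at 1404 and 1446 TPM. It was at 1143 and 1165 TPM at 24 h, 1492 and 1633 TPM at 48 h, and 1924 and 1763 TPM at 96 h. Again no BLSE library reached down to the cjESC libraries, and the difference at 96 h was 1.81 (SE 0.19, adjusted p = 4.63e-10). TWIST1 was at 6.12 and 4.54 TPM in cjESCs, 9.49 and 8.52 TPM at 12 h, 16.6 and 18.5 TPM at 24 h, 14.4 and 17.3 TPM at 48 h, and 16.7 and 19.3 TPM at 96 h. It differed by 1.56 (SE 0.32, adjusted p = 0.000346) at 24 h and by 1.59 (SE 0.32, adjusted p = 8.54e-05) at 96 h. SNAI2 was already at 23.1 and 28.3 TPM in cjESCs and was at 45.0 and 45.9 TPM at 12 h (0.81, adjusted p = 0.0817), 34.4 and 21.4 TPM at 24 h, 37.9 and 34.1 TPM at 48 h (0.48, adjusted p = 0.276), and 44.4 and 31.7 TPM at 96 h (0.54, adjusted p = 0.182). At 24 h the SNAI2 libraries of BLSE and cjESCs overlapped.

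EPCAM ran down as VIM ran up. It was at 1291 and 1052 TPM in cjESCs, 794 and 695 TPM at 12 h, 703 and 772 TPM at 24 h, 673 and 577 TPM at 48 h, and 279 and 256 TPM at 96 h. The difference was −0.65 (SE 0.12, adjusted p = 0.000124) at 12 h, −0.90 (SE 0.12, adjusted p = 1.13e-07) at 48 h and −2.12 (SE 0.12, adjusted p = 3.34e-17) at 96 h. CDH1 went from 193 and 206 TPM in cjESCs to 93.0 and 85.6 TPM at 48 h (−1.15, SE 0.19, adjusted p = 6.90e-06) and 35.5 and 43.6 TPM at 96 h (−2.31, SE 0.19, adjusted p = 8.62e-13). CDH2, the N-cadherin gene that usually replaces CDH1 in EMT, went from 6.12 and 4.48 TPM to 0.53 and 0.77 TPM at 96 h (−1.92, SE 0.19, adjusted p = 2.37e-10), so both cadherin genes fell.

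Leaving out single libraries ended some of these calls; here a condition is left with 1 library, which is assumed to vary like the others. Without DK20FA replicate 1, whose VIM was 375 TPM, the calls were lost for SNAI1 at 12 h (0.56, adjusted p = 0.16), VIM at 24 h (0.66, adjusted p = 0.0154), and EPCAM at 12 h (−0.50, adjusted p = 0.0194) and 24 h (−0.51, adjusted p = 0.0106). Without DK20FA replicate 2, TWIST1 lost them at 24 h (1.38, adjusted p = 0.0114) and 48 h (1.24, adjusted p = 0.016). Without BLSE 12 h replicate 1 or 2, SNAI1 at 12 h gave 0.74 (adjusted p = 0.0444) and 0.76 (adjusted p = 0.056), and without replicate 2 EPCAM gave −0.55 (adjusted p = 0.0126). Without BLSE 48 h replicate 2, TWIST1 at 48 h gave 1.29 (adjusted p = 0.0147). SNAI1 at 12 h also missed the threshold with no filter on low values (adjusted p = 0.0103) and with no intensity trend (adjusted p = 0.0104).

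Of 38 other epithelial genes tested, 19 fell and 4 rose in BLSE at 48 h, with a median of −0.569 against −0.0128 for all genes. The claudin gene CLDN3 (−2.74) and the protease gene PRSS8 (−2.64) fell most, and the protease inhibitor gene SPINT1 (1.71) and the desmosomal cadherin gene DSC2 (1.48) rose most. Of 42 mesenchymal genes, 12 rose and 4 fell, led by the matrix genes TGFBI (4.998) and DCN (3.13) on the one side and COL1A2 (−1.60) and PDGFRB (−1.32) on the other. Of 17 genes for fibronectin receptors and matrix adhesion, 8 rose, among them the integrin genes ITGA8 (3.39) and ITGA9 (1.69), and 1, ITGB8 (−1.12), fell. Of 33 EMT signalling genes, 6 rose and 6 fell: the Notch ligand gene JAG1 (3.15) and the WNT effector gene LEF1 (2.60) rose, and FGF8 (−4.73) and the mesendoderm factor gene EOMES (−2.43) fell. Among 12 other intermediate filament genes, the lamin gene LMNA (0.93) and the nestin gene NES (0.75) rose and the neurofilament genes INA (−1.96) and NEFL (−0.96) fell. The calls for COL1A2, EOMES, ITGB8, LMNA and NEFL were each lost without at least 1 of the 4 libraries, at adjusted p up to 0.201.

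Enforced SOX17 in BLSE gave another course from the same cjESCs. VIM rose at 12 h and was lower than in cjESCs at 48 and 96 h, SNAI2 was lower from 24 h on, TWIST1 was higher at 24 and 48 h, and EPCAM was lower at all 4 times. The number of genes higher and lower than in cjESCs was 1 and 1 at 12 h (9.82% of all genes called), 1 and 2 at 24 h (16.8%), 1 and 3 at 48 h (26.3%), and 0 and 3 at 96 h (43.2%). These comparisons and those of BLSE share the DK20FA libraries. They also share the changes of medium, feeder cells and aggregation given for BLSE, and dexamethasone comes with SOX17 here too. The SOX17 + BLSE cells were unsorted up to 48 h and sorted for tdTomato at 96 h. VIM was at 1109 and 1087 TPM at 12 h, 609 and 686 TPM at 24 h, 363 and 290 TPM at 48 h, and 68.4 and 59.7 TPM at 96 h. The 96 h libraries were the lowest of the series, and between each time and the next the libraries did not overlap.

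SNAI2 in SOX17 + BLSE was at 20.3 and 11.01 TPM at 12 h, 13.1 and 9.66 TPM at 24 h, 14.97 and 9.02 TPM at 48 h, and 0.77 and 0.70 TPM at 96 h. At all 4 times these libraries lay below both cjESC libraries, and the difference passed from 24 h on. SNAI2 was lower by 1.12 (SE 0.31, adjusted p = 0.00683) at 24 h and, in the sorted cells of 96 h, by 3.94 (SE 0.31, adjusted p = 4.60e-13). TWIST1 was at 9.19 and 6.63 TPM at 12 h, 14.5 and 13.3 TPM at 24 h (1.25, SE 0.32, adjusted p = 0.00283), 13.3 and 14.9 TPM at 48 h (1.26, SE 0.32, adjusted p = 0.00158), and 2.90 and 3.16 TPM at 96 h (−0.64, adjusted p = 0.0852). SNAI1 was at 48.0 and 37.5 TPM at 12 h, 40.2 and 34.1 TPM at 24 h, 29.9 and 27.3 TPM at 48 h, and 28.1 and 17.7 TPM at 96 h, and it passed the test at none of the 4 times. At 96 h its difference was −0.47 (adjusted p = 0.0402), which passed with median-ratio scaling (−0.65, adjusted p = 0.00494) and without SOX17 + BLSE 96 h replicate 1 (−0.79, adjusted p = 0.00416).

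EPCAM was at 788 and 731 TPM at 12 h, 769 and 759 TPM at 24 h, 691 and 802 TPM at 48 h, and 427 and 500 TPM at 96 h, below both cjESC libraries at all times. CDH2 rose in SOX17 + BLSE. It was at 13.4 and 14.3 TPM at 12 h, 51.5 and 64.0 TPM at 48 h and 311 and 284 TPM at 96 h, 5.58 (SE 0.19, adjusted p = 1.19e-22) above cjESCs. CDH1 at 96 h was at 43.7 and 63.8 TPM, 1.90 below cjESCs (SE 0.19, adjusted p = 8.83e-11). The sorted cells thus had less CDH1, more CDH2, less VIM and less SNAI2 than cjESCs. At 96 h the median of all genes was itself 0.14 above cjESCs, and relative to it the differences were −3.16 for VIM, −4.08 for SNAI2 and −1.48 for EPCAM.

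Several of these calls against cjESCs rested on single libraries. Without DK20FA replicate 1, the calls were lost for VIM at 12 h (0.59, adjusted p = 0.0357), EPCAM at 12 h (−0.47, adjusted p = 0.0222) and 24 h (−0.46, adjusted p = 0.0173), and SNAI2 at 24 h (−1.26, adjusted p = 0.0207) and 48 h (−1.21, adjusted p = 0.017). Without DK20FA replicate 2, they were lost for SNAI2 at 24 h (−0.97, adjusted p = 0.0674) and 48 h (−0.93, adjusted p = 0.0648), TWIST1 at 24 h (1.06, adjusted p = 0.0446) and 48 h (1.08, adjusted p = 0.0307), and VIM at 48 h (−0.21, adjusted p = 0.433). Without SOX17 + BLSE 24 h replicate 1 or 2, SNAI2 gave −1.32 (adjusted p = 0.013) and −0.91 (adjusted p = 0.0994), and TWIST1 gave 1.19 (adjusted p = 0.0286) and 1.304 (adjusted p = 0.0172). Without SOX17 + BLSE 48 h replicate 2, SNAI2 (−0.73, adjusted p = 0.148), TWIST1 (1.19, adjusted p = 0.0205) and VIM (−0.53, adjusted p = 0.0829) missed the threshold. SNAI2 and TWIST1 at 24 and 48 h also missed it with a pseudocount of 0.1, at adjusted p from 0.0142 to 0.0825, and SNAI2 with no filter on low values, at adjusted p of 0.0111 and 0.0105.

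SOX17 + BLSE against BLSE at the same time asked what enforcing SOX17 changed. SOX17 and the dexamethasone used to enforce it came together, so their effects cannot be told apart. SNAI2 was lower with SOX17 from 12 h on and SNAI1 and VIM from 24 h on, while TWIST1 and EPCAM did not pass until 96 h. At 12 h 1 of the 5 genes was lower (2.40% of all genes called), at 24 h and 48 h 3 were lower (7.56% and 16.7%), and at 96 h 4 were lower and 1 higher (45.4%). At 12 h SNAI2 was at 20.3 and 11.01 TPM with SOX17 and 45.0 and 45.9 TPM without (−1.54, SE 0.31, adjusted p = 0.00165), and VIM at 1109 and 1087 TPM against 1404 and 1446 TPM (−0.38, adjusted p = 0.346). At 48 h VIM was at 363 and 290 TPM against 1492 and 1633 TPM, a difference of −2.26 (SE 0.19, adjusted p = 1.25e-11). SNAI1 was then at 29.9 and 27.3 TPM against 64.8 and 74.8 TPM (−1.26, SE 0.20, adjusted p = 5.82e-06), and SNAI2 at 14.97 and 9.02 TPM against 37.9 and 34.1 TPM (−1.55, SE 0.31, adjusted p = 0.00024). In all 3 genes the libraries of the conditions did not overlap, which was not counted over all genes. At 24 h the differences were −0.84 for VIM (adjusted p = 0.00188), −0.86 for SNAI1 (adjusted p = 0.00223) and −1.201 for SNAI2 (adjusted p = 0.00724), or −0.94, −0.96 and −1.303 relative to the median of all genes. TWIST1 overlapped, at 13.3 and 14.9 TPM against 14.4 and 17.3 TPM (−0.16, adjusted p = 0.784), and EPCAM was at 691 and 802 TPM against 673 and 577 TPM (0.26, adjusted p = 0.107).

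The difference with enforced SOX17 grew between 12 and 48 h for VIM, from −0.38 to −2.26 (a change of −1.89, SE 0.27, adjusted p = 1.49e-05), in a test where 2.46% of all genes passed. VIM was the only one of the 5 genes to pass that test. SNAI1 changed in the same direction, by −0.93 (SE 0.28, adjusted p = 0.0421), and SNAI2, already lower at 12 h, changed by −0.01 (SE 0.44). At 96 h, where SOX17 + BLSE cells were sorted and BLSE cells were not, SOX17, dexamethasone and the sort cannot be told apart. The differences were then −4.83 for VIM, −4.47 for SNAI2, −2.23 for TWIST1, −1.66 for SNAI1 and 0.79 for EPCAM (adjusted p = 4.32e-07 or less for each). Relative to the median of all genes, which was 0.24 higher with SOX17, they were −5.07, −4.72, −2.48, −1.90 and 0.55. BLSE at 96 h also had fibroblast marker sums of 1935 and 1249 TPM against 81.4 and 81.7 TPM, and the part of such cells in the difference was not tested; at 48 h these sums were 332 and 354 TPM against 316 and 312 TPM.

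Some of the smaller differences rested on single libraries. At 12 h SNAI2 lost the call without BLSE replicate 1 (−1.55, adjusted p = 0.0209), BLSE replicate 2 (−1.52, adjusted p = 0.0274) or SOX17 + BLSE replicate 2 (−1.12, adjusted p = 0.11). At 24 h it lost it without BLSE replicate 1 (−0.87, adjusted p = 0.129) or SOX17 + BLSE replicate 1 (−1.40, adjusted p = 0.0173) or 2 (−0.9999, adjusted p = 0.105), and at 48 h without SOX17 + BLSE replicate 2 (−1.21, adjusted p = 0.022). At 24 h SNAI1 lost it without BLSE replicate 1 (−0.82, adjusted p = 0.0212) or 2 (−0.89, adjusted p = 0.0185) or SOX17 + BLSE replicate 2 (−0.74, adjusted p = 0.0501). VIM at 24 h lost it without BLSE replicate 1 (−0.85, adjusted p = 0.0136) or 2 (−0.82, adjusted p = 0.0243) or SOX17 + BLSE replicate 1 (−0.75, adjusted p = 0.039). With a pseudocount of 0.1, SNAI2 missed the threshold at 12, 24 and 48 h (adjusted p from 0.0146 to 0.0924), and with no filter on low values it missed it at 24 h (adjusted p = 0.0123).

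At 48 h, 18 of 38 epithelial genes were higher with SOX17 and 2 lower, with a median of 0.753 against 0.0995 for all genes. The protease gene ST14 (2.14) and the tight junction gene TJP3 (2.01) were highest, and the keratin genes KRT19 (−1.46) and KRT8 (−0.55) were lower. Of 42 mesenchymal genes, 16 were lower and 4 higher: ENG (−2.33), a TGF-beta co-receptor gene, was among the lower ones, and CDH2 (3.54) and S100A4 (3.52) were highest. Of the 17 fibronectin receptor and adhesion genes 7 were lower, among them ITGA8 (−2.36) and ITGA9 (−1.62), and 1, ITGB8 (2.26), was higher. Among 33 EMT signalling genes, 3 were higher and 4 lower, or 21.2% called against 16.7% of all genes. The endoderm factor gene FOXA2 (4.19) and SOX9 (2.02) were highest and LEF1 (−2.83) and HMGA2 (−2.26) lowest. Of the 12 intermediate filament genes 16.7% were called, the same share as of all genes. NES (−1.73) was lower together with VIM, and NEFH (1.01) was higher. Without BLSE 48 h replicate 1 the call for S100A4 was lost (2.06, adjusted p = 0.0237), and those for KRT8 and NEFH were lost without any 1 of the 4 libraries, at adjusted p up to 0.0456.

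**Figure D3:**
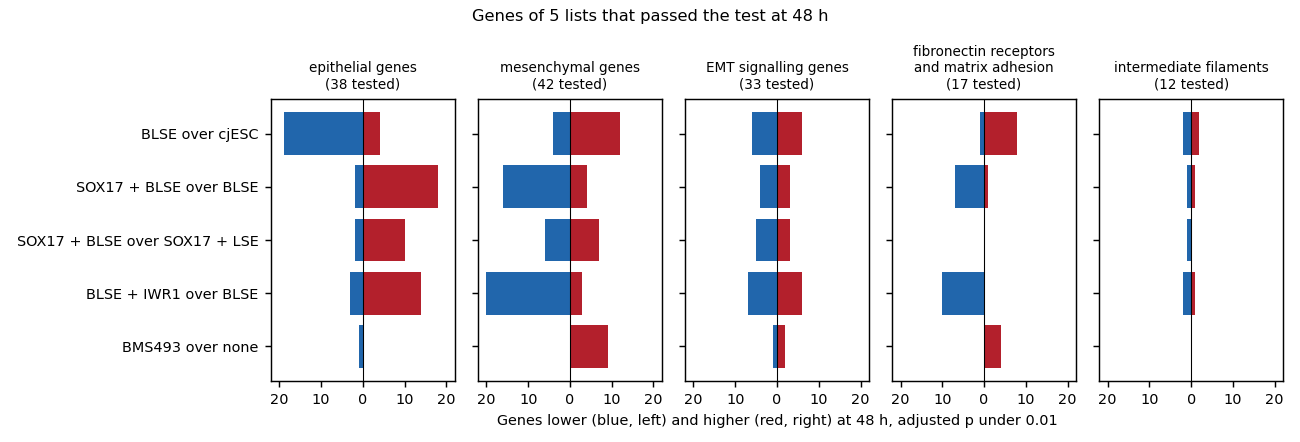
Number of genes of 5 lists that were lower (blue, left) or higher (red, right) at 48 h at an adjusted p under 0.01 in 5 comparisons. Of all genes, 19.8% were called in BLSE against cjESCs, 16.7% with SOX17, 8.01% with BMP4, 21.2% on the IWR1 route and 4.83% with BMS493. Of 38 epithelial genes 19 were lower in BLSE than in cjESCs, 18 were higher with SOX17 and 14 on the IWR1 route; of 17 fibronectin receptor and adhesion genes 8 were higher in BLSE, and 7 and 10 were lower in the other two comparisons.

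SOX17 + BLSE against SOX17 + LSE asked what BMP4 added to SOX17. Up to 48 h none of the 5 genes passed, and at 96 h, when both conditions were sorted for tdTomato, 4 were lower with BMP4. The share of all genes called was 0.277% at 12 h, 2.62% at 24 h, 8.01% at 48 h and 7.11% at 96 h. By limma, the number of the 5 genes with an unadjusted p under 0.05 was 1 at 12 h, 1 at 24 h and 1 at 48 h. At 48 h TWIST1 was at 13.3 and 14.9 TPM with BMP4 and 23.9 and 22.7 TPM without (−0.69, adjusted p = 0.165). VIM fell in both conditions: in SOX17 + LSE it was at 1220 and 1252 TPM at 12 h, 651 and 721 TPM at 24 h, 473 and 371 TPM at 48 h, and 170 and 141 TPM at 96 h.

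At 96 h VIM was at 68.4 and 59.7 TPM with BMP4, against 170 and 141 TPM without it (−1.26, SE 0.19, adjusted p = 8.62e-06). SNAI2 was at 0.77 and 0.70 TPM against 2.84 and 4.70 TPM (−1.43, SE 0.31, adjusted p = 0.00143), and TWIST1 at 2.90 and 3.16 TPM against 5.93 and 12.9 TPM (−1.28, SE 0.32, adjusted p = 0.00453). EPCAM was lower as well, at 427 and 500 TPM against 631 and 789 TPM (−0.61, SE 0.12, adjusted p = 0.000297). In each of these 4 genes the libraries did not overlap, whereas SNAI1 overlapped, at 28.1 and 17.7 TPM against 28.3 and 24.4 TPM. The lack of overlap was not counted over all genes. The fibroblast marker sums were 81.4 and 81.7 TPM with BMP4 and 176 and 255 TPM without, and the PGC marker sums were 3780 and 3548 TPM against 3039 and 2779 TPM; their part in the differences was not tested. The difference of the BMP4 effect between 48 and 12 h, in which 1.26% of all genes passed, was not passed by any of the 5 genes. By limma 1 of them, SNAI1, had an unadjusted p under 0.05 (0.00678, adjusted p = 0.122), a level not counted over all genes.

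Most of the 96 h calls for BMP4 needed all libraries. SNAI2 lost the call without SOX17 + BLSE replicate 1 (−1.46, adjusted p = 0.0134) or 2 (−1.40, adjusted p = 0.018) or SOX17 + LSE replicate 2 (−1.15, adjusted p = 0.0581). TWIST1 lost it without SOX17 + BLSE replicate 1 (−1.24, adjusted p = 0.0441) or 2 (−1.33, adjusted p = 0.0276) or SOX17 + LSE replicate 2 (−0.78, adjusted p = 0.214), and with a pseudocount of 0.1 (adjusted p = 0.0249). EPCAM lost it without SOX17 + BLSE replicate 1 (−0.50, adjusted p = 0.0222) or SOX17 + LSE replicate 2 (−0.45, adjusted p = 0.0371). The call for VIM was kept in each of these fits. At 48 h, 10 of 38 epithelial genes were higher with BMP4 and 2 lower, with GRHL1 (2.45) among the higher ones and the P-cadherin gene CDH3 (−0.76) and ELF3 (−0.75) lower. Of 42 mesenchymal genes 7 were higher and 6 lower, with SPARCL1 (1.64) and TPM1 (1.39) against FOXC1 (−2.25) and BGN (−1.41). EOMES (−2.75) and GSC (−2.62), factors of the primitive streak, were lowest among the EMT signalling genes, of which 3 were higher, led by JAG1 (1.38) and SMAD7 (1.16), and 5 lower. Of these genes, ELF3, SPARCL1, TPM1, BGN, EOMES and GSC lost the call without at least 1 of the 4 libraries, at adjusted p up to 0.117.

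In the wild type route from PESFA, pre-treated cjESCs were set against cjESCs in PESFA, where 0.304% of all genes passed. VIM passed, and SNAI1, SNAI2, TWIST1 and EPCAM did not. Per the study's methods, this step also brought dissociation, another medium, a Rock inhibitor and fibronectin in place of feeder cells. Their effects and those of IM12 and activin A cannot be told apart. VIM was at 504 and 729 TPM in pre-treated cjESCs and 1212 and 1817 TPM in PESFA (−1.29, SE 0.19, adjusted p = 6.75e-05). The fibroblast marker sums did not fall along with it, at 2519 and 4763 TPM against 2991 and 1737 TPM. TWIST1 overlapped, at 16.3 and 28.8 TPM against 21.6 and 43.4 TPM. The call for VIM was lost without PESFA replicate 2 (−0.997, adjusted p = 0.0298) or pre-treated replicate 1 (−1.02, adjusted p = 0.0244).

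After the pre-treatment, BLSE + IWR1 was set against pre-treated cjESCs. Besides the cytokines and IWR1, the end of IM12 and activin A and growth as aggregates came with this step, which cannot be told apart. The cells were unsorted up to 48 h and sorted for tdTomato at 96 h, so time and sort cannot be told apart at 96 h. VIM and TWIST1 were lower than in pre-treated cjESCs at all 4 times, SNAI2 and EPCAM passed at 96 h, and SNAI1 did not pass. Of the 5 genes 2 were lower at 12, 24 and 48 h, against 6.79%, 9.46% and 19.2% of all genes called, and 4 at 96 h, against 40.1%. VIM was at 262 and 239 TPM at 12 h (−1.27, SE 0.19, adjusted p = 5.11e-06), 145 and 171 TPM at 24 h, 299 and 315 TPM at 48 h, and 229 and 259 TPM in the sorted cells of 96 h. It thus stayed below the pre-treated libraries throughout and was lowest at 24 h (−1.94, SE 0.19, adjusted p = 5.31e-10). TWIST1 was at 4.99 and 3.34 TPM at 12 h, 2.47 and 3.48 TPM at 24 h, 1.17 and 3.83 TPM at 48 h, and 0.38 and 0.90 TPM at 96 h (−3.81, SE 0.32, adjusted p = 1.76e-12).

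SNAI2 was at 11.5 and 12.6 TPM in pre-treated cjESCs and at 7.19 and 7.92 TPM at 12 h, 7.09 and 4.92 TPM at 24 h, 10.8 and 8.15 TPM at 48 h, and 0.85 and 1.2 TPM at 96 h (−2.69, SE 0.31, adjusted p = 5.04e-09). SNAI1 was at 19.7 and 22.4 TPM in pre-treated cjESCs and at 16.4 to 28.0 TPM at the 4 later times. EPCAM held its level for 48 h in unsorted cells and was lower in the sorted cells of 96 h. It was at 1278 and 1059 TPM in pre-treated cjESCs, 1427 and 1335 TPM at 12 h, 1250 and 1256 TPM at 24 h, 1074 and 1053 TPM at 48 h, and 364 and 421 TPM at 96 h (−1.57, SE 0.12, adjusted p = 1.07e-13). CDH1 followed the same course, from 188 and 162 TPM in pre-treated cjESCs to 198 and 263 TPM at 48 h and 31.2 and 36.4 TPM at 96 h (−2.34, SE 0.19, adjusted p = 6.05e-13). Relative to the median of all genes, 0.14 at 96 h, the 96 h differences were −1.71 for EPCAM, −2.83 for SNAI2, −3.95 for TWIST1 and −1.46 for VIM.

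The fibroblast marker sums were 2519 and 4763 TPM in pre-treated cjESCs and 115 to 249 TPM in BLSE + IWR1, and their part in the lower VIM and TWIST1 was not tested. At 48 h 28 of 42 mesenchymal genes were lower, COL3A1 (−7.68) and COL1A2 (−6.67) most, and 2, ENG (2.06) and TGFBI (0.94), were higher; without the fibroblast markers the counts were 20 and 2 of 33. Of 38 epithelial genes 9 were higher, led by SPINT1 (2.26) and GRHL1 (1.90), and 3 lower, among them CLDN3 (−1.93) and PKP2 (−1.56). Without pre-treated replicate 2, VIM at 48 h lost the call (−0.71, adjusted p = 0.0198). The call for TGFBI was lost without pre-treated replicate 1 (0.32, adjusted p = 0.47) or either BLSE + IWR1 48 h replicate (adjusted p up to 0.0827).

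BLSE + IWR1 was also set against BLSE at the same time. These libraries differ in IWR1, line, medium and pre-treatment at once, which cannot be told apart. SNAI1, SNAI2 and VIM were lower and EPCAM higher on the IWR1 route at all 4 times, and TWIST1 was lower from 24 h on. Of the 5 genes, 3 were lower and 1 higher at 12 h (13.8% of all genes called), and 4 were lower and 1 higher at 24 h (14.6%), 48 h (21.2%) and 96 h (44.1%). At 48 h VIM was at 299 and 315 TPM against 1492 and 1633 TPM (−2.34, SE 0.19, adjusted p = 5.95e-12) and TWIST1 at 1.17 and 3.83 TPM against 14.4 and 17.3 TPM (−2.37, SE 0.32, adjusted p = 2.66e-07). SNAI2 was at 10.8 and 8.15 TPM against 37.9 and 34.1 TPM (−1.83, SE 0.31, adjusted p = 1.82e-05), and SNAI1 at 28.0 and 25.0 TPM against 64.8 and 74.8 TPM (−1.36, SE 0.20, adjusted p = 1.18e-06). EPCAM was at 1074 and 1053 TPM against 673 and 577 TPM (0.77, SE 0.12, adjusted p = 2.66e-06). The libraries of the routes overlapped in none of the 5 genes at 48 h, which was not counted over all genes.

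At 12 h TWIST1 differed by −0.97 (adjusted p = 0.0235). At 96 h, with sorted cells on the IWR1 route only, EPCAM was at 364 and 421 TPM against 279 and 256 TPM (0.55, SE 0.12, adjusted p = 0.000136); relative to the median of all genes, 0.20 higher on the IWR1 route, this was 0.34, and with median-ratio scaling it did not pass (0.28, adjusted p = 0.0658). The other 4 genes were −3.12 for VIM, −4.46 for SNAI2, −3.75 for TWIST1 and −2.15 for SNAI1 relative to that median. From 12 to 48 h the difference between the routes did not change past the threshold in any of the 5 genes, in a test that 1.04% of all genes passed. By limma 1, TWIST1, had an unadjusted p under 0.05 (a change of −1.40, adjusted p = 0.0906), a level not counted over all genes. At 48 h the fibroblast marker sums were 117 and 144 TPM against 332 and 354 TPM, and their part in the differences was not tested.

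At 48 h 14 of 38 epithelial genes were higher on the IWR1 route and 3 lower, with MAL2 (2.32) and PRSS8 (1.88) highest and DSC2 (−1.46) and KRT19 (−0.82) lower. CDH1 was among the higher ones, at 198 and 263 TPM against 93.0 and 85.6 TPM (1.34, SE 0.19, adjusted p = 5.53e-07). Of 42 mesenchymal genes 20 were lower, TGFBI (−3.18) and the fibrillin gene FBN1 (−2.95) most, and 3 higher, among them PDGFRB (1.95) and THY1 (1.94). Of the 17 fibronectin receptor and adhesion genes, 10 were lower and 0 higher, led by ITGB3 (−2.26) and ITGA8 (−2.21). The EMT signalling genes were split, with 6 higher and 7 lower: FGF8 (4.03) and EOMES (2.40) were highest, and JAG1 (−2.92) and LEF1 (−2.73) lowest. NEFM (2.73) was higher and LMNA (−1.79) and NES (−0.46) lower among the intermediate filament genes. The calls for EOMES, KRT19 and NES were each lost without at least 1 of the 4 libraries, at adjusted p up to 0.106.

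**Figure D4:**
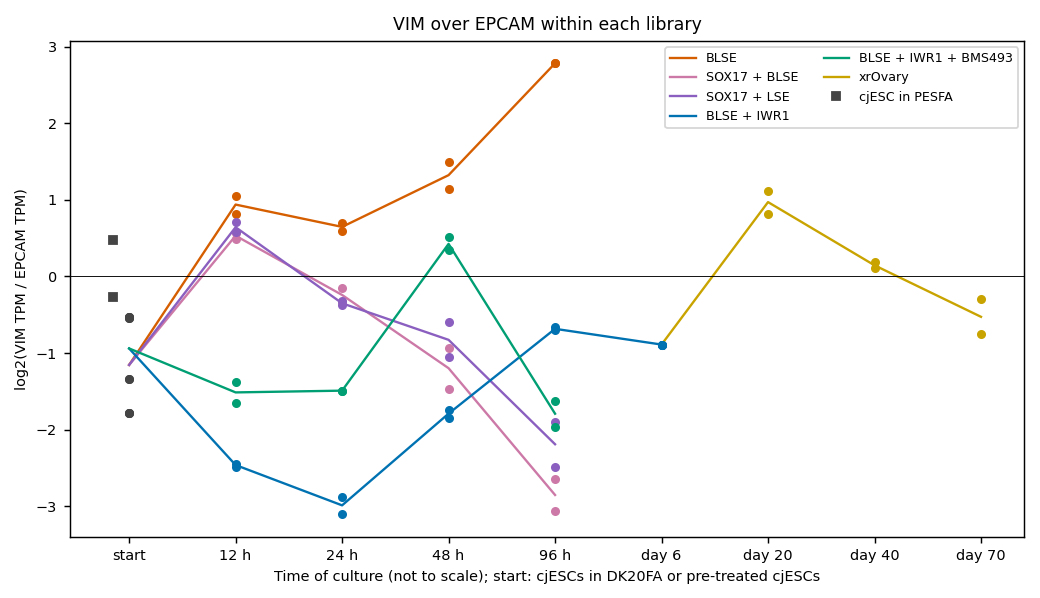
The log2 ratio of VIM TPM to EPCAM TPM within each library, by culture time (not to scale); points are libraries, lines join condition means. As linear ratios, BLSE stands at 6.90 and 6.89 at 96 h and SOX17 + BLSE at 0.160 and 0.119, and BLSE + IWR1 + BMS is above 1 at 48 h only, at 1.43 and 1.27.

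The ratio of VIM to EPCAM within a library, which a single scaling factor per library cannot change, brought the courses together. It was 0.290 and 0.694 in cjESCs in DK20FA, and at 48 h 2.22 and 2.83 in BLSE, 0.525 and 0.362 in SOX17 + BLSE, 0.661 and 0.480 in SOX17 + LSE, and 0.279 and 0.299 in BLSE + IWR1. At 12 h the ratio was above 1 in all 6 libraries of the transgenic cultures, SOX17 or not, at 1.41 to 2.08, and at 0.184 and 0.179 in BLSE + IWR1. The plot of this ratio shows the early rise shared by the 3 transgenic cultures.

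Adding BMS493 to BLSE + IWR1 asked what blocking retinoic acid signalling changed. VIM was higher with BMS493 than without at 24 h, and SNAI1, SNAI2 and VIM were all higher at 48 h. In the sorted cells of 96 h VIM was lower with BMS493. None of the 5 genes passed at 12 h, when 0% of all genes did; by limma 1 of the 5, VIM, had an unadjusted p under 0.05 at that time (0.76, adjusted p = 0.0982). At 24 h 1 gene was higher (0.0893% of all genes called), at 48 h 3 (4.83%), and at 96 h 1 was higher and 1 lower (0.732%). VIM was at 375 and 482 TPM with BMS493 against 262 and 239 TPM at 12 h, at 394 and 399 TPM against 145 and 171 TPM at 24 h (1.32, SE 0.19, adjusted p = 0.000175), and at 1083 and 1059 TPM against 299 and 315 TPM at 48 h (1.80, SE 0.19, adjusted p = 8.57e-08). At these times the VIM libraries did not overlap.

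SNAI2 at 48 h was at 34.4 and 66.5 TPM with BMS493, the highest mean of the series, against 10.8 and 8.15 TPM (2.24, SE 0.31, adjusted p = 8.91e-06). SNAI1 was at 34.7 and 32.4 TPM against 16.4 and 17.7 TPM at 24 h (0.94, adjusted p = 0.0176) and at 58.3 and 49.1 TPM against 28.0 and 25.0 TPM at 48 h (0.99, SE 0.20, adjusted p = 0.000846). TWIST1 did not move with them, at 3.12 and 3.24 TPM against 1.17 and 3.83 TPM (0.37, adjusted p = 0.492). EPCAM was at 759 and 837 TPM against 1074 and 1053 TPM (−0.42, SE 0.12, adjusted p = 0.0168), without overlap but short of the threshold.

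At 96 h, in sorted cells, VIM was at 115 and 121 TPM with BMS493 against 229 and 259 TPM (−1.04, SE 0.19, adjusted p = 0.00122). SNAI1 remained higher, at 32.7 and 48.5 TPM against 16.5 and 19.9 TPM (1.09, SE 0.20, adjusted p = 0.00109). SNAI2 overlapped, at 1.79 and 0.51 TPM against 0.85 and 1.2 TPM, and TWIST1 was at 2.33 and 1.87 TPM against 0.38 and 0.90 TPM (0.93, adjusted p = 0.104). VIM and SNAI1 thus differed in opposite directions in these cells. The change of the BMS493 effect from 12 to 48 h did not pass in any of the 5 genes, in a test that 0.0893% of all genes passed. By limma 3 of them, SNAI1, SNAI2 and VIM, had an unadjusted p under 0.05, a level not counted over all genes. Their changes were 0.69, 1.65 and 1.04, with adjusted p of 0.409, 0.109 and 0.0907.

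Without BLSE + IWR1 24 h replicate 1 (1.21, adjusted p = 0.0315) or BLSE + IWR1 + BMS 24 h replicate 1 (1.33, adjusted p = 0.0196) or 2 (1.32, adjusted p = 0.0141), the 24 h call for VIM was lost. The 48 h call for SNAI1 was lost without BLSE + IWR1 + BMS 48 h replicate 1 (0.87, adjusted p = 0.0265). At 96 h that for SNAI1 was lost without BLSE + IWR1 replicate 1 (0.97, adjusted p = 0.0279) or BLSE + IWR1 + BMS replicate 2 (0.82, adjusted p = 0.0632), and that for VIM without BLSE + IWR1 replicate 2 (−0.95, adjusted p = 0.0276) or BLSE + IWR1 + BMS replicate 1 (−0.997, adjusted p = 0.045) or 2 (−1.08, adjusted p = 0.0106). At 48 h those for VIM and SNAI2 were otherwise kept with any 1 library left out. The direction of TWIST1 at 48 h turned without BLSE + IWR1 48 h replicate 1 (−0.21, adjusted p = 0.786).

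At 48 h 9 of 42 mesenchymal genes were higher with BMS493 and 0 lower, PDGFRA (1.87) and LUM (1.75) among them, and 4 of 17 fibronectin receptor and adhesion genes were higher, ITGA9 (1.26) and ITGB3 (0.98) among them. The libraries were far apart for PDGFRA, at 71.4 and 17.5 TPM with BMS493 against 5.59 and 14.2 TPM, and its call was lost without BLSE + IWR1 + BMS 48 h replicate 1 (0.89, adjusted p = 0.212) or BLSE + IWR1 48 h replicate 1 (1.27, adjusted p = 0.0787). CDH2 was at 10.2 and 10.7 TPM against 4.45 and 4.87 TPM (1.02, SE 0.19, adjusted p = 0.000569). Of 38 epithelial genes 1, ST14 (−0.76), was lower and 0 were higher. Among the EMT signalling genes the endoderm factor gene GATA6 (1.68) and JAG1 (1.33) were higher and FGF8 (−2.17) lower. Without BLSE + IWR1 + BMS 48 h replicate 1 the call for GATA6 was lost (0.93, adjusted p = 0.118), and without replicate 2 that for FGF8 (−0.79, adjusted p = 0.306). The calls for LUM, ITGA9, ITGB3, ST14 and JAG1 were also each lost without at least 1 of the 4 libraries, at adjusted p up to 0.157. The fibroblast marker sums were 170 and 309 TPM with BMS493 against 117 and 144 TPM, and the endothelial marker sums 199 and 198 TPM against 120 and 180 TPM; their part in the differences was not tested.

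From 96 h to day 6 of BLSE + IWR1 none of the 5 genes passed, against 2.75% of all genes; by limma 2, SNAI1 and TWIST1, had an unadjusted p under 0.05, with SNAI1 at 30.1 and 32.3 TPM against 16.5 and 19.9 TPM (0.75, adjusted p = 0.0155). At day 6 VIM was at 194 and 184 TPM, SNAI2 at 0.46 and 0.93 TPM, TWIST1 at 0 in both libraries and EPCAM at 360 and 340 TPM. Day 6 PGCLCs were then set against the cjESCs in PESFA from which their route began, and 4 of the 5 genes were lower, against 44.9% of all genes called. The differences were −2.97 for VIM (SE 0.19, adjusted p = 8.93e-16), −2.83 for SNAI2 (SE 0.31, adjusted p = 1.11e-09) and −1.98 for EPCAM (SE 0.12, adjusted p = 1.17e-16), or −3.07, −2.94 and −2.08 relative to the median of all genes. TWIST1 went from 21.6 and 43.4 TPM to a level listed at 0, and SNAI1 differed by 0.48 (adjusted p = 0.038), which passed without PESFA replicate 1 (0.75, adjusted p = 0.00678). In the same comparison CDH2 rose from 21.6 and 24.9 TPM to 476 and 492 TPM. The metalloproteinase gene MMP2 rose from 625 and 586 TPM to 2182 and 2143 TPM, while CLDN3 (−4.94) and COL3A1 (−8.09) fell. The fibroblast marker sums were 2991 and 1737 TPM in PESFA against 114 and 92.3 TPM at day 6. The cells in PESFA and at day 6 were also sorted for different markers. The part of such cells and of the sort in these differences was not tested.

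At 96 h the sorted tdTomato-positive cells of BLSE + IWR1 and SOX17 + BLSE could be compared with each other. VIM was higher and TWIST1 lower on the IWR1 route, against 6.08% of all genes called. VIM was at 229 and 259 TPM against 68.4 and 59.7 TPM (1.91, SE 0.19, adjusted p = 8.42e-09), and TWIST1 at 0.38 and 0.90 TPM against 2.90 and 3.16 TPM (−1.31, SE 0.32, adjusted p = 0.00434). SNAI1, SNAI2 and EPCAM did not pass, with SNAI2 at 0.85 and 1.2 TPM against 0.77 and 0.70 TPM. NES, like VIM an intermediate filament gene, was also higher, at 94.8 and 111 TPM against 53.3 and 51.4 TPM (0.96, adjusted p = 1.92e-06). The call for TWIST1 was lost without SOX17 + BLSE replicate 1 (−1.36, adjusted p = 0.0232) or 2 (−1.27, adjusted p = 0.0486), without BLSE + IWR1 replicate 1 (−1.08, adjusted p = 0.07) or 2 (−1.55, adjusted p = 0.0105), and with quantile normalization (−1.15, adjusted p = 0.0102).

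In the xrOvary, VIM rose and then fell step by step while SNAI2 and TWIST1 stayed at the bottom of their range. At day 20 VIM was at 638 and 707 TPM against 194 and 184 TPM at day 6 (1.82, SE 0.19, adjusted p = 1.19e-09, or 1.90 relative to the median of all genes), the only 1 of the 5 genes to pass, against 20.4% of all genes. It was at 301 and 319 TPM at day 40 (−1.11, SE 0.19, adjusted p = 9.96e-05; 4.6% of all genes called) and 123 and 151 TPM at day 70 (−1.18, SE 0.19, adjusted p = 4.22e-05; 2.73% called). The libraries of successive times did not overlap, and with any 1 of these libraries left out the 3 calls were kept. In the 6 xrOvary libraries SNAI2 was at 0 to 0.49 TPM and TWIST1 at 0 to 0.38 TPM.

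SNAI1 was still at 29.9 and 38.0 TPM at day 20, 25.9 and 22.6 TPM at day 40, and 20.5 and 20.2 TPM at day 70. EPCAM was at 361 and 325 TPM at day 20, 264 and 297 TPM at day 40, and 207 and 185 TPM at day 70. Only the last step of EPCAM passed (−0.51, SE 0.12, adjusted p = 0.00429), and its call was lost without day 40 replicate 1 (−0.60, adjusted p = 0.012) or 2 (−0.43, adjusted p = 0.11), without day 70 replicate 1 (−0.59, adjusted p = 0.0129) or 2 (−0.43, adjusted p = 0.107), with median-ratio scaling (−0.44, adjusted p = 0.0398), with quantile normalization (−0.47, adjusted p = 0.0147) and with no intensity trend (adjusted p = 0.0169). Between day 6 and day 20, when VIM rose, 2 of 42 other mesenchymal genes rose and 19 fell, and 4 of 12 other intermediate filament genes rose and 2 fell. At day 70 the epithelial genes ST14 (−2.89) and CDH3 (−2.27) fell furthest against day 40, and 12 of 38 epithelial genes fell and 0 rose.

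The markers of gonadal somatic cells, the other cells of the xrOvary, were lower at day 20, when VIM was highest, than at day 6. The summed TPM of the 14 measured markers was 27.4 and 34.8 at day 20, 25.2 in both libraries at day 40 and 19.2 and 22.6 at day 70, against 83.1 and 59.3 at day 6, and PDGFRA alone accounted for 18.0 to 25.0 TPM of the sum in the 6 xrOvary libraries. Of the 14 markers 5 to 9 were at 0 in a library, among them NR5A1, TCF21 and NR2F2 in all 6, while AMHR2, EMX2 and FOXL2 were at 0 to 4.39 TPM. At day 6, before the aggregation with gonadal cells, 9 and 8 of the 14 were already at 0. The gonadal cells are of mouse and the reads were mapped to marmoset, so these levels cannot show how many gonadal cells were present. The part of such cells in the VIM level was not tested. The fibroblast marker sums were 36.6 and 35.7 TPM at day 20, 25.2 to 26.0 TPM at day 40 and 21.3 to 23.3 TPM at day 70.

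**Figure D5:**
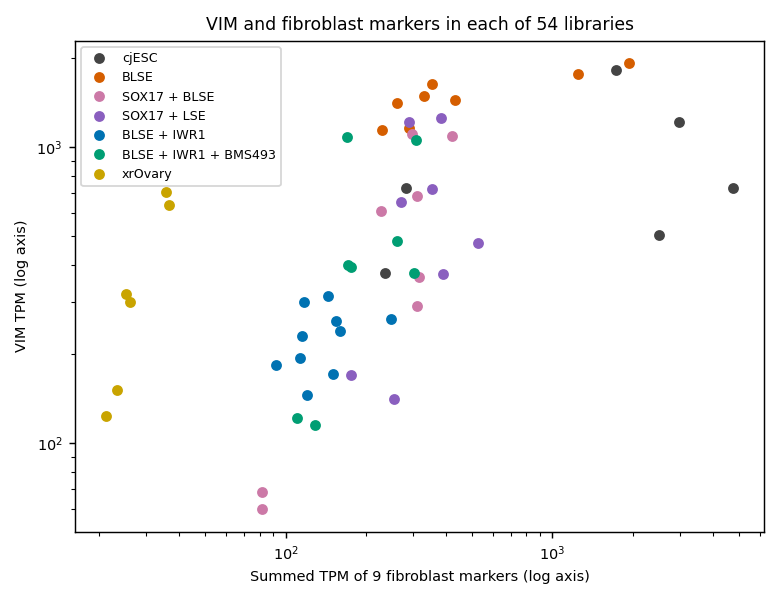
VIM TPM against the summed TPM of 9 fibroblast markers in each of 54 libraries, both on log axes and coloured by culture. The xrOvary libraries have the lowest marker sums (21.3 to 36.6 TPM) with VIM up to 707 TPM, and cjESCs in PESFA, pre-treated cjESCs and BLSE at 96 h the highest (1249 to 4763 TPM).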

How the data were processed

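Poly(A) RNA of 54 libraries was sequenced by the authors, mapped to a marmoset genome with STAR and summarised per gene with RSEM, per the labels and the study's methods. The deposited values are TPM with 2 decimals, scaled per library by the authors and limited to 14812 genes shared with human, so neither depth nor a counting interval can be given. Replicates are 2 per condition, called biological duplicates in the study's methods, and p-values measure the spread between these libraries. All columns belonged to the 54 samples (0 columns of others).

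Values were taken as log2(TPM + 1), and 11197 genes at 1.5 or above in at least 1 library were fitted with limma 3.58.1 in R 4.3.3 (1 mean per condition, 27 residual degrees of freedom, intensity trend, two-sided, Benjamini-Hochberg over all genes, adjusted p under 0.01) in 36 comparisons and 4 differences between comparisons. Fold changes on this scale understate those of low genes. The script was tested on simulated data. Named genes were the listed members, with values in every library, and in each further list the 2 genes with the largest passing differences in each direction, at 48 h or in the last comparison of a family without 48 h; SOX17, CDH1, and CDH2 where it was not among them, were added after their values were seen. Some genes that this rule names are not reported here. Likeness was Pearson's r over 27 condition means among the 11197 genes fitted, leaving out those named by a locus number. The members and gene lists were chosen with earlier results of these data known. Alternatives were median-ratio scaling, quantile normalization, a pseudocount of 0.1, no filter, no intensity trend, separate fits of the libraries of each comparison, a replicate block, and leaving out each library in turn.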

Additional observations from a re-analysis of the deposited data

Results flagged for a closer look

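The difference in VIM between SOX17 + BLSE and BLSE was not the same at 12 h and 48 h. It was −0.38 in log2(TPM + 1) at 12 h (1109 and 1087 TPM against 1404 and 1446 TPM) and −2.26 at 48 h (363 and 290 TPM against 1492 and 1633 TPM), and the test of the change itself gave −1.89 (limma, SE 0.27, adjusted p = 1.49e-05). At both times the libraries did not overlap. SOX17 itself was at 164 and 168 TPM against 64.6 and 62.7 TPM at 12 h and at 368 and 322 TPM against 57.6 and 57.1 TPM at 48 h; its part in the change was not tested.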

How the results depend on the processing

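Of 92 calls of the 5 genes over 36 comparisons, 92 were kept with the replicate number as a block, 90 with no intensity trend, 89 with median-ratio scaling, 89 with quantile normalization, 88 with no filter and 83 with a pseudocount of 0.1. The correlation of the deviations of same-numbered libraries was −0.21 to 0.289 over 36 comparisons and above 0.1 in 7 of them, among these SOX17 + BLSE against BLSE (0.207 and 0.272) and against SOX17 + LSE (0.289 and 0.181) at 12 and 24 h. The numbers were not taken as pairs, and the replicate block ended none of the 92 calls. Fits on only the libraries compared, which have few degrees of freedom, kept 19. In these fits the number of calls for higher and lower levels, summed over the times of each comparison, was 0 and 0 for the medium, 0 and 1 for BLSE, 0 and 3 for the SOX17 course, 0 and 4 for SOX17 against BLSE, 0 and 4 for BLSE + IWR1 against BLSE, 0 and 0 for BMS493, 0 and 0 for the later course, and 0 and 0 for the sorted cells of the routes, with 0 lower for BMP4, 0 for the pre-treatment and 3 for BLSE + IWR1 against pre-treated cjESCs. They called 16 genes of the pathway lists.

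Calls for a lower level in PESFA were 0 with a pseudocount of 0.1, 0 with median-ratio scaling and 0 with quantile normalization, against 1. The pseudocount of 0.1 left 1 higher call in the SOX17 course and gave 2 higher and 5 lower calls in the later course, where SNAI2 and TWIST1 are near 0. Quantile normalization left 0 lower calls between the sorted cells. Without the 96 h libraries, an alternative chosen after seeing the data, SOX17 against BLSE kept 0 higher and 7 lower calls, BMP4 0 lower, BLSE + IWR1 against pre-treated cjESCs 6 lower and BMS493 0 lower.

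With 1 library left out in turn, lower calls ranged from 0 to 1 for the medium, 2 to 4 for BLSE (2 without DK20FA replicate 1), 5 to 10 for the SOX17 course (5 without DK20FA replicate 1), 8 to 11 for SOX17 against BLSE, 1 to 4 for BMP4, 0 to 1 for the pre-treatment, 9 to 10 for BLSE + IWR1, 0 to 1 for BMS493, 2 to 3 for the later course, and 0 to 0 between the sorted cells. Higher calls ranged from 9 to 11 for BLSE, 2 to 3 for the SOX17 course, 4 to 5 for BMS493 and 0 to 1 for day 6 against PESFA. Of 164 differences named by rule in the gene lists, 57 lost the call and 16 moved by over 1.5 times without 1 library, an alternative added after seeing the data. Among the differences that did not pass, TWIST1 with BMS493 at 48 h ranged from −0.21, without BLSE + IWR1 48 h replicate 1, to 0.95, without replicate 2. The cause of these changes was not tested. Depth is unknown, and 2 libraries per condition limit the precision.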

Other observations

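CDH1 and CDH2, looked at after their values were seen, changed in opposite directions in the tdTomato-positive cells of both routes. In SOX17 + BLSE at 96 h CDH2 was at 311 and 284 TPM, and it was at 370 and 340 TPM in BLSE + IWR1 at 96 h, 396 and 390 TPM in BLSE + IWR1 + BMS at 96 h, and 476 and 492 TPM at day 6. In unsorted BLSE at 96 h it was at 0.53 and 0.77 TPM. SNAI2 and TWIST1, which were high in that BLSE culture, were between 0 and 3.16 TPM in these sorted libraries. In the sorted cells of SOX17 + LSE at 96 h, CDH2 was at 191 and 167 TPM. SNAI2 was there at 2.84 and 4.70 TPM and TWIST1 at 5.93 and 12.9 TPM. CDH2 went on at 309 and 288 TPM at xrOvary day 20 and 171 and 173 TPM at day 70, while CDH1 was at 26.9 and 21.7 TPM at day 6 and 9.50 and 10.7 TPM at day 70 (day 70 against day 40, −1.07, limma adjusted p = 0.000168).

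With SOX17, CDH2 was above cjESCs in the unsorted cells from 12 h (1.25, limma adjusted p = 1.19e-05) to 48 h (3.22, limma adjusted p = 1.58e-15). In BLSE + IWR1 it was below pre-treated cjESCs up to 48 h (−1.59, limma adjusted p = 4.98e-08) and above them in the sorted cells of 96 h (4.39, limma adjusted p = 9.90e-20). Whether unsorted cells at 96 h of BLSE + IWR1 hold the same CDH2 level is not analysed here. NEFM, a neurofilament gene, fell together with VIM between cjESCs in PESFA (544 and 307 TPM) and day 6 (1.85 and 0.99 TPM; −7.43, limma adjusted p = 1.44e-18).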
